A study of Mus musculus with 8 samples.

Results

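Nanos2, Nanos3, Dnd1, Dazl and Ddx4 encode RNA-binding proteins that set the programme of fetal germ cells. They were 5 of the 55401 genes in a table of RNA sequencing counts and were found by matching the Ensembl identifier, without its version, to the symbols of GENCODE M21. All 5 had enough counts to be tested. The cells were mouse prospermatogonia at E17.5 (embryonic day), a stage of fetal male germ cells after their entry into mitotic arrest. By their labels 4 libraries were Tet1-/- (KO) and 4 were Tet1+/+ (WT), all from batch 1. The labels state neither the kind of Tet1 allele, nor how the cells were isolated, nor whether each library came from a separate animal, so the p-values below measure the spread between these libraries.

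In fetal germ cells much of gene control acts on messenger RNA that is already made. NANOS proteins carry a zinc finger, bind RNA together with DND1 or Pumilio proteins, and recruit the CCR4-NOT complex, which shortens the poly(A) tail and so promotes decay. NANOS3 is known for keeping primordial germ cells alive, and NANOS2 for holding fetal male germ cells out of meiosis. DAZL binds U-rich sites and mostly promotes translation or stability, and DDX4 (mouse vasa homologue) is an RNA helicase of the germ granules in which piRNAs are made. The comparison asks whether transcripts of these regulators differ between the labelled genotypes.

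Promoters of the 3 genes whose transcripts were higher in the libraries labelled KO are shown because they differ in CpG content, the dinucleotide that carries DNA methylation. They come from RefSeq on GRCm38.p6, each read on the gene's strand and ending at the base before the first exon that the annotations place there, with CpG in capitals.
Nanos2, chr7:18987274-18987399, plus strand: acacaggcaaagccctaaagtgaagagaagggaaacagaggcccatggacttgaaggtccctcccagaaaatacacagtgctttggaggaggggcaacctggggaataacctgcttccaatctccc
Nanos3, chr8:84176553-84176802, minus strand: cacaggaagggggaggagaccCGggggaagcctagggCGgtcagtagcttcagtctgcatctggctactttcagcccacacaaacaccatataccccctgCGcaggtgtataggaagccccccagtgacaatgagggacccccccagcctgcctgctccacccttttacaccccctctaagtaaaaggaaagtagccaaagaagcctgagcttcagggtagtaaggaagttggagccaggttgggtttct
Dazl, chr17:50293637-50293870, minus strand: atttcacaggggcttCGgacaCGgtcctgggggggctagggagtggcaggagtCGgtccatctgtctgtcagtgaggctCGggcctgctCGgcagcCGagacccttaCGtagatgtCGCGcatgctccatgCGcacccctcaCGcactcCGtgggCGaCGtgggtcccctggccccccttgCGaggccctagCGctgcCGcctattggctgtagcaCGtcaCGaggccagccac

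Over the whole 300-base window of the RefSeq table, from 250 bases before the start site to 50 after it, Nanos2 had 0 CpG and Nanos3 had 3. Dazl had 28 CpG and Ddx4 had 38. The median over 32851 such windows was 7. As few CpG as in Nanos2 were found in 5.43% of windows, and as many as in Dazl or Ddx4 in 14.2% and 4.95%. The genes with a higher transcript level thus included one whose promoter window held no CpG and one with more CpG than the median window. The letters CACGTG (an E-box) and GGCGGGAA (an E2F-type site) were searched on both strands, a choice made after the sequences were seen. Each motif holds a CpG, and they do not overlap each other in sequence. Both were in the window of Ddx4 and in none of the other 3, and no window of Dnd1 was used. Of all windows 7.15% held CACGTG and 2.19% held GGCGGGAA.

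Total counts ran from 13820764 to 20115250 per library, and a count of 0 allowed up to 3 counts, or at most 0.217 CPM (counts scaled to library size). Tet1, the labelled gene, went against its label: it had 30.2 to 34.2 CPM in the libraries labelled WT and 75.8 to 147 CPM under the KO label, for a log2 difference of 1.97 (SE 0.178, edgeR with Benjamini-Hochberg adjusted p = 3.03e-06). A count per gene does not show which exons were read. Every direction below refers to the labels as deposited, and "rose" and "fell" stand for a difference of KO from WT. Of the 24005 genes tested, 53.5% passed at the adjusted p of 0.05, with 25.3% that rose and 28.2% that fell. The groups did not overlap for 48.4% of genes, 23.2% higher and 25.1% lower. These shares differed with abundance. Among genes of mean log2 CPM 4 or more, to which Dnd1, Dazl and Ddx4 belong, 45.8% rose and 17.2% fell. Among genes under 4, to which Nanos2 and Nanos3 belong, 14.9% rose and 33.8% fell. Of the calls 47.3% were higher, against 31.2% with upper-quartile scaling and 34.5% with scaling on ribosomal protein genes, which shifted the median over all genes by -0.24 and -0.18.

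1 library stood apart in its markers of other cells. The summed level of 6 Leydig cell markers was 1803 CPM in KO 4, against 14.9 to 22.7 CPM in the other libraries labelled KO and 16.5 to 32.5 CPM in those labelled WT. Its 8 Sertoli cell markers summed to 95.8 CPM, against 25.4 to 26.4 CPM in the others labelled KO and 16.7 to 29.4 CPM in those labelled WT. This was not shared by all of them. The log2 difference (KO minus WT) of Inha was 3.51, and 0.71 without KO 4, and that of Gata4 was 0.43 and 0.05. Sox9, Amh, Wt1, Dhh and Cldn11 had 0.46, 1.20, 1.13, -0.83 and -1.18, against 0.41, 1.06, 1.06, -0.78 and -1.03 without KO 4. The 5 immune cell markers summed to 1.99 to 4.24 CPM in the libraries labelled KO and 5.65 to 8.80 CPM in those labelled WT (exact two-sided permutation p = 0.0286, adjusted p = 0.133 over 7 lists). The sums of interstitial, endothelial and erythroid markers overlapped between the groups. None of the 38 markers of other cells was at 0 in all 8 libraries, and of the 30 that could be tested 12 rose and 9 fell. Of those 12, 5 were Leydig cell markers, and 0 of them passed without KO 4. Beside these counts, 25.3% of all genes tested rose and 28.2% fell. Most of the 30 lay under a mean log2 CPM of 4, where 14.9% of genes rose and 33.8% fell. Without KO 4, 31 markers could be tested, of which 5 rose and 7 fell, beside 5692 and 6258 of all 25288 genes tested. The 7 prospermatogonium markers other than the 5 genes summed to 2511 to 3358 CPM in the libraries labelled WT and 2046 to 2624 CPM in those labelled KO (exact p = 0.0571, adjusted p = 0.133), so markers of the labelled cell type were present in each library. All 7 of these germ cell markers had a mean log2 CPM of 4 or more. Of them 1 rose, 3 fell and 3 did not pass, beside 45.8% of such genes that rose and 17.2% that fell. The lower sum thus did not hold for each marker. Fewer germ cells, less RNA per germ cell and differences of single genes cannot be told apart in such bulk samples. The differences of the 5 genes and the list counts are given below without KO 4 as well, and the part of the other markers in them was not tested. The 21 genes named from the lists by the rule all kept their direction and their call without KO 4. The largest move among them was 0.14 on the log2 scale. Most were chosen for the lowest p in the fit that included KO 4, so few calls could be lost among them. Of all germ granule partners listed below, 7 were lower with all libraries and 6 without KO 4.

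**Figure D1:**
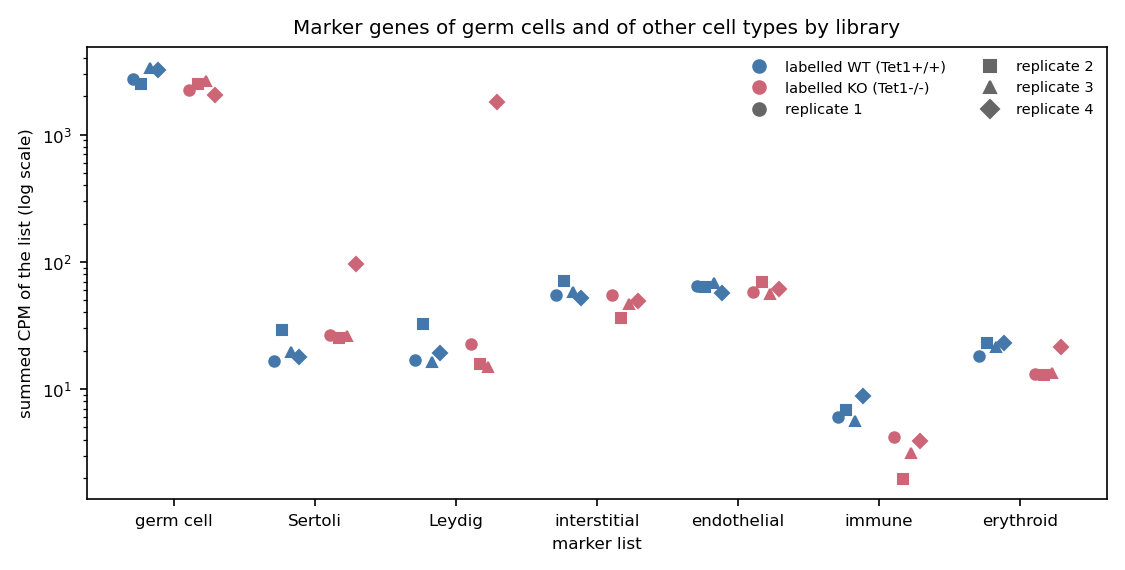
Summed CPM of 7 marker lists (log scale) in each of the 8 libraries, with the labelled genotype by colour and the replicate by symbol. The Leydig sum of KO 4 lies at 1803 CPM and those of the other 7 libraries between 14.9 and 32.5 CPM.

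Of the 5 genes, Nanos2, Nanos3 and Dazl rose and their groups did not overlap, while Dnd1 and Ddx4 did not pass. That is 3 of 5 beside 25.3% of all genes tested that rose and 23.2% that were higher without overlap. By abundance it is 1 of 3 (Dazl) beside 45.8%, a share no higher than the background, and 2 of 2 (Nanos2 and Nanos3) beside 14.9%. Nanos3 had the highest difference of the 5, followed by Nanos2 and Dazl. The 3 calls held in each of the 18 other settings and sample sets tried.

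Nanos2 (ENSMUSG00000051965.8, chromosome 7, 18987400 to 18988962, plus strand, GRCm38) is annotated as 1 exonic block of 1563 bases. It had 2.05, 1.10, 1.70 and 2.33 CPM in WT 1 to WT 4 and 3.98, 7.83, 4.28 and 6.62 CPM in KO 1 to KO 4. The groups were fully separated, with the lowest level in WT 2 and the highest in KO 2. The means were 1.80 ± 0.528 CPM (SD, n = 4) and 5.68 ± 1.86 CPM (SD, n = 4). On the log2 scale this was 1.66 (SE 0.30, edgeR adjusted p = 0.0005), a fold of 3.17 with a 95% interval of 2.02 to 4.96. Without KO 4 it was 1.61. These levels rest on 19 to 40 counts per library labelled WT and 58 to 138 per library labelled KO, and the 19 counts of WT 2 have a 95% Poisson interval of 11.4 to 29.7, which covers counting error only. An annotated antisense transcript, Gm45058, overlaps 766 exonic bases of Nanos2 and had a count of 0 in all 8 libraries. Whether reads were assigned by strand is not given in the sources used here, and how reads in this overlap were assigned was not tested.

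Nanos3 (ENSMUSG00000056155.6, chromosome 8, 84173731 to 84185217, minus strand) has 924 exonic bases in 3 blocks, and its RefSeq start site lies inside the longer gene of GENCODE. Its level was 2.71, 0.697, 1.51 and 1.68 CPM in WT 1 to WT 4 and 5.43, 12.0, 4.80 and 6.30 CPM in KO 1 to KO 4. Again WT 2 was the lowest and KO 2 the highest library, and the groups did not overlap. The means were 1.65 ± 0.829 CPM (SD, n = 4) and 7.12 ± 3.29 CPM (SD, n = 4). The log2 difference was 2.10 (SE 0.382, edgeR adjusted p = 0.000522), a fold of 4.30 with a 95% interval of 2.43 to 7.60. Without KO 2 it was 1.76, and without KO 4 it was 2.19. Only 12 counts were seen in WT 2, with a Poisson interval of 6.20 to 21.0. The microRNA genes Mir181c and Mir181d lie within the gene on the same strand but share no exonic base with it, and had 0 to 9 and 1 to 3 counts per library.

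Dnd1 (ENSMUSG00000044595.10, chromosome 18, 36763671 to 36766214, minus strand), whose protein acts with NANOS2 and NANOS3 on shared target messages, did not pass. Its level was 90.9, 56.2, 104 and 138 CPM in WT 1 to WT 4 and 90.1, 127, 99.6 and 94.0 CPM in KO 1 to KO 4. The 4 libraries labelled KO lay within the range of those labelled WT. The means were 97.3 ± 34.0 CPM (SD, n = 4) and 103 ± 16.6 CPM (SD, n = 4). The log2 difference was 0.08 (SE 0.21, edgeR adjusted p = 0.773), with a 95% interval of -0.37 to 0.53, that is from a fold of 0.771 to 1.44, and its sign turned with upper-quartile, ribosomal protein and cyclic loess scaling and without WT 2 or KO 2. Without WT 4, the highest library, the difference was 0.31 (adjusted p = 0.187), and without KO 4 it was 0.14. At its end Dnd1 shares 140 exonic bases with Wdr55 on the opposite strand, which rose by 0.99 on the log2 scale.

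Dazl (ENSMUSG00000010592.9, chromosome 17, 50279395 to 50293636, minus strand) had the narrowest relative spread of the 5 genes among the libraries labelled KO. It had 212, 323, 265 and 255 CPM in WT 1 to WT 4 and 466, 426, 424 and 411 CPM in KO 1 to KO 4. The highest library labelled WT, WT 2, stayed below the lowest labelled KO. The means were 264 ± 45.7 CPM (SD, n = 4) and 431 ± 24.0 CPM (SD, n = 4). The log2 difference was 0.71 (SE 0.122, edgeR adjusted p = 0.00036), a fold of 1.64 with a 95% interval of 1.36 to 1.96. Without KO 4 it was 0.76. With upper-quartile, ribosomal protein and cyclic loess scaling it was 0.47, 0.53 and 0.48.

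Ddx4 (ENSMUSG00000021758.14, chromosome 13, 112598333 to 112652475, minus strand), a standard marker of germ cells, was the most abundant of the 5. It had 379.8, 311, 429 and 346 CPM in WT 1 to WT 4 and 492, 526, 379 and 422 CPM in KO 1 to KO 4. KO 1 and KO 2 were above every library labelled WT, while KO 3 and KO 4 lay below WT 3. The means were 366 ± 50.2 CPM (SD, n = 4) and 455 ± 66.7 CPM (SD, n = 4). The log2 difference was 0.31 (SE 0.13, edgeR adjusted p = 0.057), a fold of 1.24 with a 95% interval of 1.02 to 1.51 before adjustment over all genes. It passed with DESeq2 (adjusted p = 0.0365), limma-voom (0.0468), RLE scaling (0.049) and no low-count filter (0.0429), and without WT 3 (0.0271) or KO 3 (0.02). With upper-quartile, ribosomal protein and cyclic loess scaling it was 0.07, 0.12 and 0.09, with adjusted p from 0.462 to 0.639. Without KO 4 it was 0.37 (adjusted p = 0.0523).

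**Figure D2:**
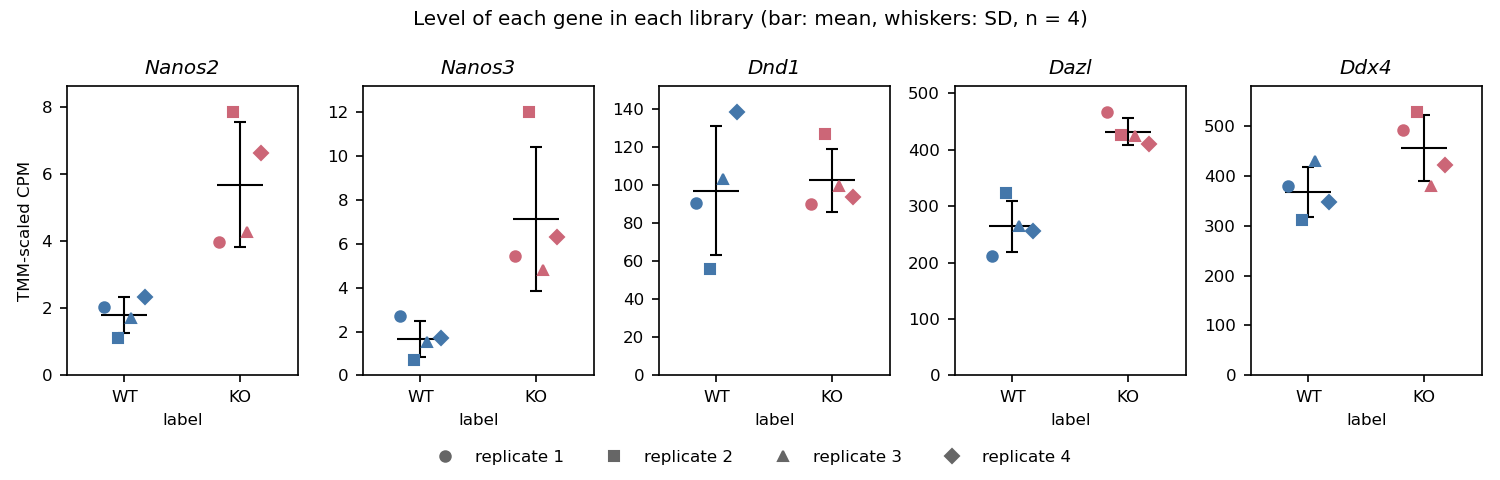
TMM-scaled CPM of the 5 genes in each library labelled WT (blue) and KO (red), each axis starting at 0, with the replicate by symbol, the mean as a bar and the SD as whiskers (n = 4). Nanos2, Nanos3 and Dazl show no overlap between the groups, while the libraries of Dnd1 and Ddx4 overlap.

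**Figure D3:**
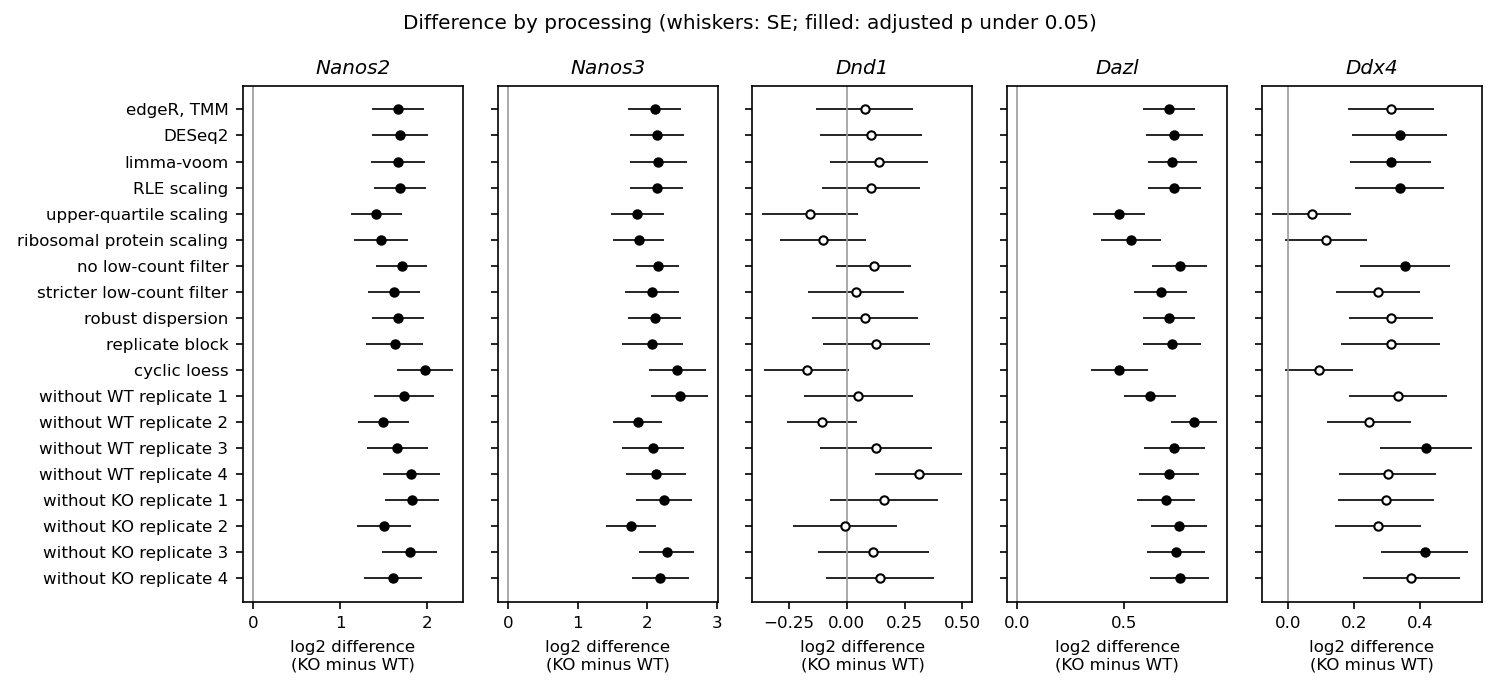
Log2 difference (KO minus WT) of each gene with its SE under edgeR with TMM scaling and 18 other settings or sets of libraries, with filled points where the adjusted p was under 0.05. Nanos2, Nanos3 and Dazl are filled throughout, Ddx4 is filled in 6 of the 18, and Dnd1 in none and lies on either side of 0.

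Levels between genes were compared as CPM per kilobase of annotated exon. In the libraries labelled WT the order was Ddx4 (122 ± 16.7, SD, n = 4), Dazl (69.1 ± 12.0), Dnd1 (40.3 ± 14.1), Nanos3 (1.79 ± 0.897) and Nanos2 (1.15 ± 0.338). The ranges of Dazl and Dnd1 overlapped there, as did those of Nanos3 and Nanos2. Ddx4 and Dazl were set apart by a ratio of means of 1.76, and Dnd1 and Nanos3 by one of 22.6. In the libraries labelled KO the order of these levels was the same, at 151 ± 22.1, 113 ± 6.27, 42.6 ± 6.88, 7.71 ± 3.56 and 3.63 ± 1.19, and no neighbours overlapped. The ratio of Dnd1 to Nanos3 was 5.52 there. Both NANOS transcripts thus stayed the least abundant of the 5 in each group. Nanos2 was divided by all of its 1563 exonic bases, of which 766 overlap Gm45058. Its order against Nanos3, and their lack of overlap under the KO label, could depend on how reads there were assigned. That was not tested.

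WT 2 and KO 2, the libraries at the ends of the first principal component of all tested genes (65.9% of the variance), were also at the ends for several of the 5 genes. Among the libraries labelled WT, WT 2 was the lowest for Nanos2, Nanos3, Dnd1 and Ddx4 and the highest for Dazl. Among those labelled KO, KO 2 was the highest for Nanos2, Nanos3, Dnd1 and Ddx4. Within the WT label Nanos3 varied most, with its highest library at 3.89 times its lowest. Dnd1 varied 2.46-fold, Nanos2 2.11-fold, Dazl 1.52-fold and Ddx4 1.38-fold. WT 2 also had the highest Sertoli (29.4 CPM), interstitial (70.7 CPM) and Leydig sums (32.5 CPM) of the libraries labelled WT. Its endothelial, immune and erythroid sums were not the highest of them. Its germ cell marker sum (2511 CPM) was the lowest of them. The part of these sums in the values of WT 2 was not tested.

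Ratios between 2 of the genes within a library do not depend on how libraries are scaled. The log2 ratio of Nanos2 to Dnd1 was -5.45, -5.63, -5.91 and -5.87 in WT 1 to WT 4 and -4.49, -4.01, -4.53 and -3.82 in KO 1 to KO 4, so that each library labelled KO held more Nanos2 for its Dnd1. The difference was 1.50. For Nanos3 to Dnd1 the values were -5.05, -6.28, -6.08 and -6.34 against -4.04, -3.40, -4.36 and -3.89, a difference of 2.01. The ratio of Nanos2 to Ddx4 differed by 1.33 and that of Nanos3 to Ddx4 by 1.84, both without overlap. Leaving out 1 library at a time gave 1.37 to 1.61, 1.83 to 2.30, 1.19 to 1.52 and 1.56 to 2.10 for these differences in turn. These 4 of the 10 pairs reached the smallest p that 4 against 4 libraries can give (exact two-sided permutation p = 0.0286), and none passed after adjustment over the 10 pairs (adjusted p = 0.0714).

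The other 6 ratios overlapped between the groups. Nanos2 to Nanos3 differed by -0.51 (exact p = 0.114, adjusted p = 0.163), and so the larger difference of Nanos3 was not separated from that of Nanos2. Nanos2 to Dazl differed by 0.92 (exact p = 0.114) and Nanos3 to Dazl by 1.42 (exact p = 0.0857), both with an adjusted p of 0.163. Dazl to Ddx4 differed by 0.41 (exact p = 0.143, adjusted p = 0.179). In WT 2 this log2 ratio was 0.06, against -0.84 to -0.44 in the other libraries labelled WT and -0.31 to 0.16 in those labelled KO. Dnd1 to Dazl (-0.59, exact p = 0.20) and Dnd1 to Ddx4 (-0.17, exact p = 0.657) had an adjusted p of 0.222 and 0.657, and the latter changed sign without WT 4 (0.04).

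**Figure D4:**
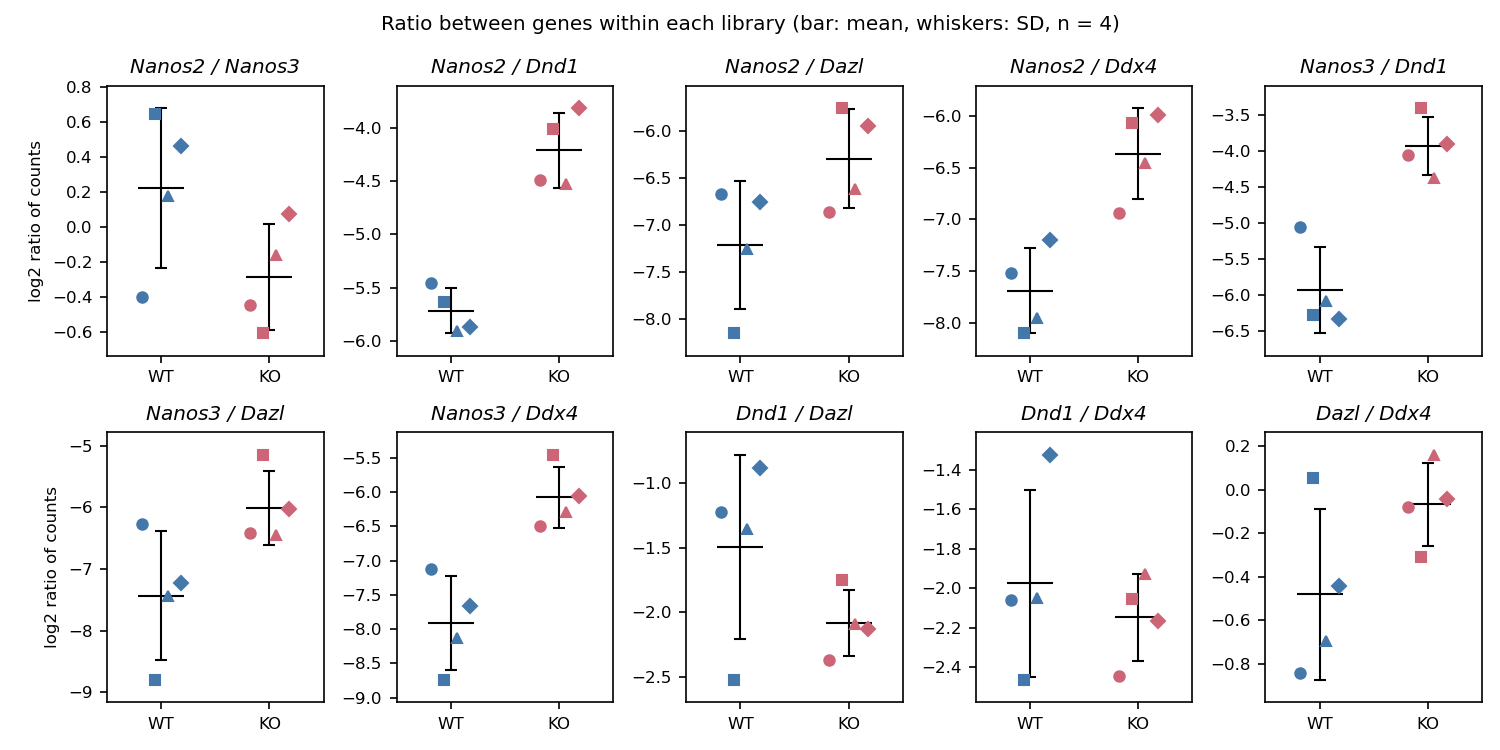
Log2 ratio of counts between each pair of the 5 genes within each library (pseudocount 0.5), with WT in blue and KO in red, the replicate by symbol, the mean as a bar and the SD as whiskers (n = 4). Nanos2 or Nanos3 against Dnd1 or Ddx4 shows no overlap between the groups, and the other 6 pairs overlap.

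NANOS proteins act through deadenylation, and its machinery was counted next. Of 15 genes for CCR4-NOT subunits, TOB adaptors and Pumilio proteins, 9 rose, 0 fell and 6 did not pass, with a median log2 difference of 0.49 beside -0.05 over all genes tested. All 15 had a mean log2 CPM of 4 or more, where 45.8% of genes rose and 17.2% fell. Cnot1, the scaffold of the complex to which NANOS proteins bind, averaged 266 ± 23.7 CPM under the WT label and 511 ± 44.2 CPM under the KO label (SD, n = 4). Its log2 difference was 0.94 (edgeR adjusted p = 1.43e-05). Tob2, an adaptor that links deadenylases to their targets, rose by 0.84, Cnot9 by 0.81 and Pum2, whose protein binds messages together with NANOS, by 0.70. Under upper-quartile, ribosomal protein and cyclic loess scaling 7 of the 15 rose, while 2, 1 and 3 fell. Cnot2, named after its values were seen, fell in all 3 (by 0.36, 0.32 and 0.39), against a difference of -0.12 (adjusted p = 0.391) with TMM. Without KO 4 the counts were 9 and 0.

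Partners of DDX4 in the germ granules, which make and load piRNAs, differed in both directions. Of 12 genes, 3 rose, 7 fell and 2 did not pass, with a median log2 difference of -0.40. Of the 10 at a mean log2 CPM of 4 or more, 2 rose and 6 fell, beside 45.8% and 17.2% of all such genes. Mael, Piwil4 and Tdrd1 of this list are also among the prospermatogonium markers, whose sum had a ratio of means of 0.795 (KO to WT), and the part of that in these counts was not tested. Tdrd9, a helicase of the piRNA pathway, averaged 786 ± 65.9 CPM under the WT label and 297 ± 42.6 CPM under the KO label (SD, n = 4). Its log2 difference was -1.41 (edgeR adjusted p = 1.82e-06). Mael fell by 1.13, the nuclear PIWI gene Piwil4 by 0.89 and the helicase gene Mov10l1 by 0.82. The 3 that rose, named after their values were seen, were the Tudor genes Tdrkh (0.69) and Tdrd5 (0.50) and the nuclease gene Pld6 (0.43). Tdrd5 and Pld6 lost their call with upper-quartile, ribosomal protein and cyclic loess scaling, with the replicate block (adjusted p = 0.0527 and 0.0599) and without WT 1 or WT 2, which each left 1 gene higher. Without WT 1 their differences were 0.47 and 0.44. Pld6 also lost its call without KO 2, which left 2. Without KO 4, 3 were higher and 6 lower.

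Messages that the literature gives as bound or regulated by NANOS2, DAZL or DND1 form a short list. Of 7 such genes, 5 rose, 1 fell and 1 did not pass, with a median log2 difference of 0.67. All 7 had a mean log2 CPM of 4 or more, where 45.8% of genes rose and 17.2% fell. Stra8, the marker of meiotic entry that NANOS2 is known to hold down, averaged 14.8 ± 6.87 CPM under the WT label and 147 ± 63.1 CPM under the KO label (SD, n = 4). Its log2 difference was 3.30 (edgeR adjusted p = 7.72e-06). The synaptonemal complex gene Sycp3 rose by 1.44, Tex19.1, a germ cell gene known as a DAZL target, by 0.84, and Taf7l by 0.67. Lats2, a kinase gene whose message DND1 is known to shield from microRNAs, fell by 0.62 (adjusted p = 0.00586), and Cdkn1b, another such message, had a difference of -0.43 (adjusted p = 0.109). Cdkn1b passed without WT 4 (-0.58, adjusted p = 0.025). With upper-quartile, ribosomal protein and cyclic loess scaling 4 were higher and 2 lower, and without KO 4 it was 5 and 1.

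Among 10 relatives of the 5 genes by protein family, 9 could be tested, 4 rose, 0 fell and 5 did not pass, with a median log2 difference of 0.25. Of the 7 at a mean log2 CPM of 4 or more 3 rose, a share near the 45.8% of all such genes. Nanos1, the remaining NANOS gene, had 7.28 ± 1.50 and 8.16 ± 0.15 CPM (SD, n = 4), a difference of 0.16 (edgeR adjusted p = 0.467), and Boll, of the DAZ family, one of 0.15 (0.466). Their signs turned with upper-quartile and ribosomal protein scaling, and that of Boll with cyclic loess too. Ddx3x, a helicase gene related to Ddx4, rose by 0.98, and its Y-linked copy Ddx3y, which shares much of its sequence so that reads may not be assigned apart, by 0.52. Among the relatives of Dnd1, Rbm47 rose by 1.28 and Rbm46 by 0.63. With upper-quartile, ribosomal protein and cyclic loess scaling 3 were higher, with Ddx3y lost, and without KO 4 there were 4.

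Of 14 other RNA-binding genes active in germ cells, 8 rose, 0 fell and 6 did not pass, with a median log2 difference of 0.47. All 14 had a mean log2 CPM of 4 or more, where 45.8% of genes rose and 17.2% fell. Cpeb1, which controls poly(A) tail length in germ cells, averaged 32.9 ± 1.23 CPM under the WT label and 81.8 ± 7.73 CPM under the KO label (SD, n = 4). Its log2 difference was 1.32 (edgeR adjusted p = 1.23e-06). Igf2bp3 rose by 1.21, Igf2bp1 by 0.96 and Meioc, needed for meiotic prophase, by 1.11. With upper-quartile, ribosomal protein and cyclic loess scaling 6 were higher and 1 lower, which was Lin28b in each (-0.46, -0.40 and -0.48). Without KO 4 the counts were 8 and 0.

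**Figure D5:**
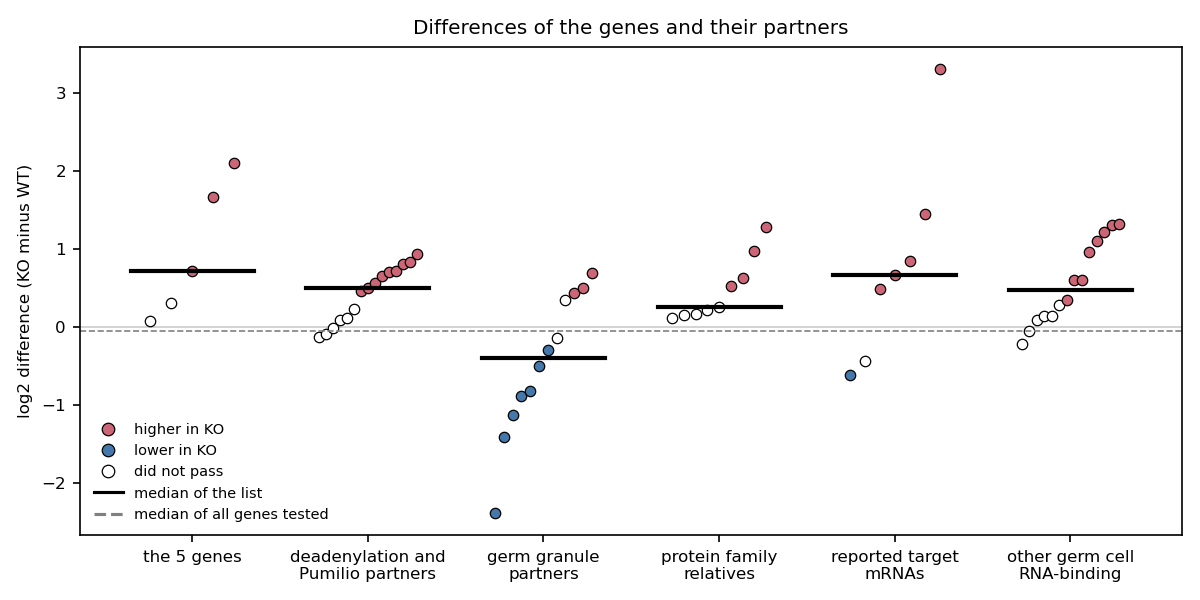
Log2 difference (KO minus WT) of each tested gene of 6 lists, red where higher and blue where lower at an adjusted p under 0.05 and white where it did not pass, with the median of each list as a bar and the median of all genes tested as a dashed line at -0.05. The germ granule partners have a median below 0 (-0.40), and the medians of the other 5 lists lie between 0.25 and 0.71.

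The genes with the most similar pattern over the 8 libraries were sought among 14972 protein-coding genes by Pearson's r of log2 CPM, as a description in which the difference between the labels contributes to r. For Nanos2 they were Eif2s3y, Plxnb1 and Ankrd11 (r from 0.991 to 0.996), and for Nanos3 St6gal1, Nepro and Mcat (0.986 to 0.993). Dazl was nearest to Igfbp3, Naif1 and Lancl2 (0.99 to 0.994). For Dnd1 the nearest were Def8, Safb and Fam129b (0.979 to 0.985), and for Ddx4 Dram2, Ube2k and Fxr1 (0.981 to 0.986). No gene was nearest to 2 of the 5, and none of the 5 was among the nearest of another. With only 3 of 14972 genes kept for each, this outcome had little room to differ. Each r was picked as among the highest of 14972 over only 8 libraries, so its size alone tells little.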

How the data were processed

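The authors deposited a table of raw, whole-number counts for 8 libraries. Build mm10 and, among other tools, Trim Galore, STAR and featureCounts 1.5.0 are listed in the submitters' processing notes without saying what each did. Per the labels' protocols, a low-input kit with ribosomal depletion and unique molecular identifiers was used. Whether counting used the identifiers or strand, and the annotation release, is not given in the sources used here. Of 55401 rows, 55141 matched GENCODE M21 (GRCm38, the assembly of mm10), and 0 sample columns were left unused.

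Counts were tested with edgeR 4.0.16 (R 4.3.3; filterByExpr, TMM scaling, quasi-likelihood, genotype only) over all 24005 genes that passed the filter, with Benjamini-Hochberg adjustment. SE is the log2 difference over the root of F. Intervals use the fit's degrees of freedom. CPM are TMM-scaled. Ratios used counts plus 0.5 and exact permutation. Replicates differed by more than counting noise (chi-square per degree of freedom 6.54 to 22.8). Counts were also simulated with 192 of 23352 genes changed. There the fit recovered 50% of genes given a log2 change of 1 and 89.6% of those given 2, with 8 false calls among 142. In the data 53.5% of genes passed, which makes the adjustment less strict, so these rates do not carry over to it. Smaller differences can be missed, at a rate that was not tested.

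The genes and lists were chosen with earlier results of these data known. Genes named are the 5, Tet1, the 4 of lowest p in each list, any gene called in a direction that 2 or fewer of its list took, the 3 most similar genes of each, and annotated neighbours within 10 kb. Tdrkh, Tdrd5, Pld6, Cnot2, Cdkn1b, Lin28b, Nanos1, Boll and single Sertoli cell markers are named outside this rule, chosen after their values were seen. Alternatives were DESeq2 1.42.0, limma 3.58.1 (voom), RLE, upper-quartile and ribosomal protein scaling, 2 low-count filters, robust dispersion, a replicate block, other pseudocounts, and leaving out each library. Cyclic loess was chosen after seeing the data.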

Additional observations from a re-analysis of the deposited data

How the results depend on the processing

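Nanos2, Nanos3 and Dazl kept their direction and their call in all 18 other settings and sets of libraries. Over the sets that leave out 1 library, the log2 difference was 1.50 to 1.82 for Nanos2, 1.76 to 2.46 for Nanos3, 0.62 to 0.83 for Dazl, 0.24 to 0.42 for Ddx4 and -0.11 to 0.31 for Dnd1. Ddx4 passed with DESeq2 (0.34), limma-voom (0.31), RLE scaling (0.34) and no low-count filter (0.35). Dnd1 changed sign when scaled by the upper quartile (-0.16), by ribosomal protein genes (-0.10) or by cyclic loess (-0.17). The cause was not tested. Adjusted p ranged from 0.02 to 0.639 for Ddx4 and from 0.187 to 0.982 for Dnd1 over these settings.

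Over all genes, 6083 were higher and 6770 lower, against 4033 and 8882 with upper-quartile and 4002 and 7605 with ribosomal protein scaling. Lower genes among the deadenylation partners numbered 0, and 2, 1 and 3 with upper-quartile, ribosomal protein and cyclic loess scaling. Higher germ granule partners numbered 3, and 1 with each of these scalings, 1 with the replicate block and 1 to 4 without 1 library. Lower reported targets numbered 1, and 2 with each of these scalings and 1 to 2 without 1 library. Lower genes among the other RNA-binding proteins numbered 0, and 1 with each of these scalings and with the stricter filter. No ratio changed its side of the threshold with a pseudocount of 0.1 or 2. With only 4 of the 10 pairs at the smallest exact p, none could pass after adjustment, so this outcome had little room to change. Leaving out a library moved no ratio by more than its spread. Dnd1 to Ddx4 ran from -0.34 to 0.04, changing sign without WT 4, and Dnd1 to Dazl from -0.93 to -0.38. With 4 same-numbered pairs a blocked ratio cannot pass an exact test, and it was given as a value only, equal to the unblocked difference.

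The replicate numbers were not taken to pair the libraries: deviations of same-numbered libraries correlated at 0.15, -0.21, -0.11 and 0.01, and KO 2 was nearest to WT 4 (0.24). The library names of KO 1 and WT 1, the pair at 0.15, carry the same number, and the labels do not say whether it marks a shared origin. In the replicate block the differences were 1.63 for Nanos2, 2.07 for Nanos3, 0.72 for Dazl, 0.31 for Ddx4 and 0.13 for Dnd1, with no call changed among the 5, and 5469 genes were higher and 6049 lower. Depth limits Nanos2 and Nanos3, with 12 to 53 counts per library labelled WT.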

Other observations

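Genes beside the 5 differed in both directions, as counted in the same fit. Beside Nanos2, Mypop, which encodes a MYB-related transcription factor and lies 2.28 kb away on the same strand, averaged 3.26 ± 1.15 CPM under the WT label and 8.11 ± 2.02 CPM under the KO label (SD, n = 4). Its log2 difference was 1.33 (edgeR adjusted p = 0.00103). Gm10676, 0.592 kb away on the other strand, fell by 0.54 (adjusted p = 0.0326), and Mypopos, antisense to Mypop, had a difference of 0.43 (adjusted p = 0.119).

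Near Nanos3, the opposite-strand gene 4930432K21Rik rose by 0.80 (edgeR adjusted p = 0.000301), while the non-coding gene Gm26887 had a difference of -0.59 (adjusted p = 0.183). The 3 coding neighbours of Dnd1 rose, and Dnd1 did not pass. Wdr55 rose by 0.99, the histidyl-tRNA synthetase gene Hars by 0.56 and the splicing factor gene Ik by 0.46 (adjusted p from 0.000126 to 0.00431). That stands beside 25.3% of all genes tested that rose, and 45.8% of those of mean log2 CPM 4 or more. Beside Ddx4, the cytokine receptor gene Il31ra fell by 0.65 (adjusted p = 0.023) and the amino acid transporter gene Slc38a9 had a difference of -0.25 (adjusted p = 0.0528). The pseudogene Gm3226 beside Ddx4 had too few counts to be tested. Without KO 4, an alternative chosen after seeing the data, Gm10676 (-0.49, adjusted p = 0.086) and Il31ra (-0.59, adjusted p = 0.0622) no longer passed. Mypop (1.41), 4930432K21Rik (0.88), Wdr55 (1.07), Hars (0.64) and Ik (0.51) still passed. No annotated gene lies within 10 kb of Dazl.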
